A study of Rattus norvegicus with 30 samples.

Results

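Among the transcripts of the rat kidney, 21 stood above the saline kidneys of 34 h in several kidneys that had received mercury chloride (HgCl2) and did not meet the same rule at 10 h. They were selected by their measured values, from 40071 transcripts with Ensembl IDs, of which 12842 averaged 5 CPM or more across all 30 libraries with a mean TPM under 1000. CPM is a transcript's estimated count relative to the library's total over all transcripts, and TPM is the deposited level per transcript length. A member had to exceed a bar, 1.5 times the highest vehicle library of 34 h, in at least 3 of the 10 HgCl2 libraries of 34 h. At 34 h 43 of the 12842 transcripts (0.335%) met this rule, and 86 (0.67%) met the same rule at 10 h against the vehicle of 10 h. Both rules were met by 20 transcripts, which leaves 23, and 2 of these are among 5 listed transcripts that the rule leaves out.

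The 30 libraries come from kidneys of Sprague-Dawley rats in 6 groups of 5. HgCl2 was given at 0.25 mg/kg (low dose) or 0.50 mg/kg (high dose), and the vehicle was saline at 1 ml/kg. Every treatment has 1 group taken at 10 h and 1 at 34 h. The sources used here do not give age, sex or the route of dosing. Kidneys were powdered whole, so each library averages over the cell types of the organ, and fewer cells of a type cannot be told apart from less RNA per cell.

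Inorganic mercury is taken up by the proximal tubule, the segment that reabsorbs most of the filtrate, and binds the thiol groups of proteins and glutathione there. Tubule cells respond to such injury over hours to days, first with stress genes and later with genes of dedifferentiation and repair. A transcript is one spliced form of a gene, and forms of 1 gene, or copies of related genes, share sequence, so that reads matching several of them have to be divided by estimation.

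The files do not pair transcript IDs with genes, and the reference tables held 0 Ensembl transcript IDs, so that no member has a gene name here, no list of injury or cell type markers could be matched, and no sequence is shown. Members are called by the length of the transcript, which is unique to each. Those with the IDs ENSRNOT00000057587 (348 bases) and ENSRNOT00000091273 (1890 bases) ranked first by HgCl2 libraries of 34 h over the bar, with 6 and 5. The transcript of 1695 bases also had 5, with a smaller ratio to the vehicle. Those with the IDs ENSRNOT00000034521 (1544 bases) and ENSRNOT00000009813 (1588 bases) came next after ENSRNOT00000057587 in how far the vehicle mean of 34 h lay below that of 10 h. The falls were log2 -5.73 and -4.56, both largely through a single saline kidney of 10 h. The other saline kidneys of 10 h had 1.31 to 2.67 CPM of ENSRNOT00000034521, still above its 34 h vehicle mean of 0.674 CPM. Those kidneys had 1.37 to 3.3 CPM of ENSRNOT00000009813, within its 34 h vehicle range.

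Transcript totals were 20.2 to 39.1 M estimated counts per library, and the members' mean estimated counts were 162 to 3947 per library. A library was taken to stand apart where 100 or more transcripts differed over 2-fold from each of the 29 others, and 4 did: vehicle replicate 2 and high dose replicate 2 at 10 h, and high dose replicates 3 and 4 at 34 h. Without these 4 libraries, 7 members still met the rule. Without high dose replicate 3 at 34 h alone, 10 did. The rule still asked for 3 HgCl2 libraries, and 13 members had no more than that, so such falls are largely built in. The design text gives 30 rats and 5 replicates a group, so a library is read here as 1 rat.

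The label of the set, raised at 34 h only, holds by a separate bar for 10 h, set on the vehicle of 10 h. Against the bar of 34 h it does not describe most members. The bar of 34 h was also exceeded by at least 1 library of 10 h in 20 of the 21, by a saline kidney of 10 h in 16, and by 3 or more HgCl2 kidneys of 10 h in 9. The shares of the 12842 transcripts with such libraries were not computed. At 34 h, 2 members (1890 and 1695 bases) had at least 3 HgCl2 libraries above every library of 10 h, and 10 members had none. The member of 1695 bases was the single one with no 10 h library over the bar. The vehicle mean was lower at 34 h than at 10 h in 19 members, against 49.9% of the 12842 transcripts. The group mean was lowest in the vehicle of 34 h in 14 members (66.7%, against 16.6% of the 12842 transcripts), and that group also had the smallest SD of the 6 in 12 members (18.1% of the 12842). The rule favours a low and narrow vehicle group at 34 h, so these counts and shares are a description.

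**Figure D1:**
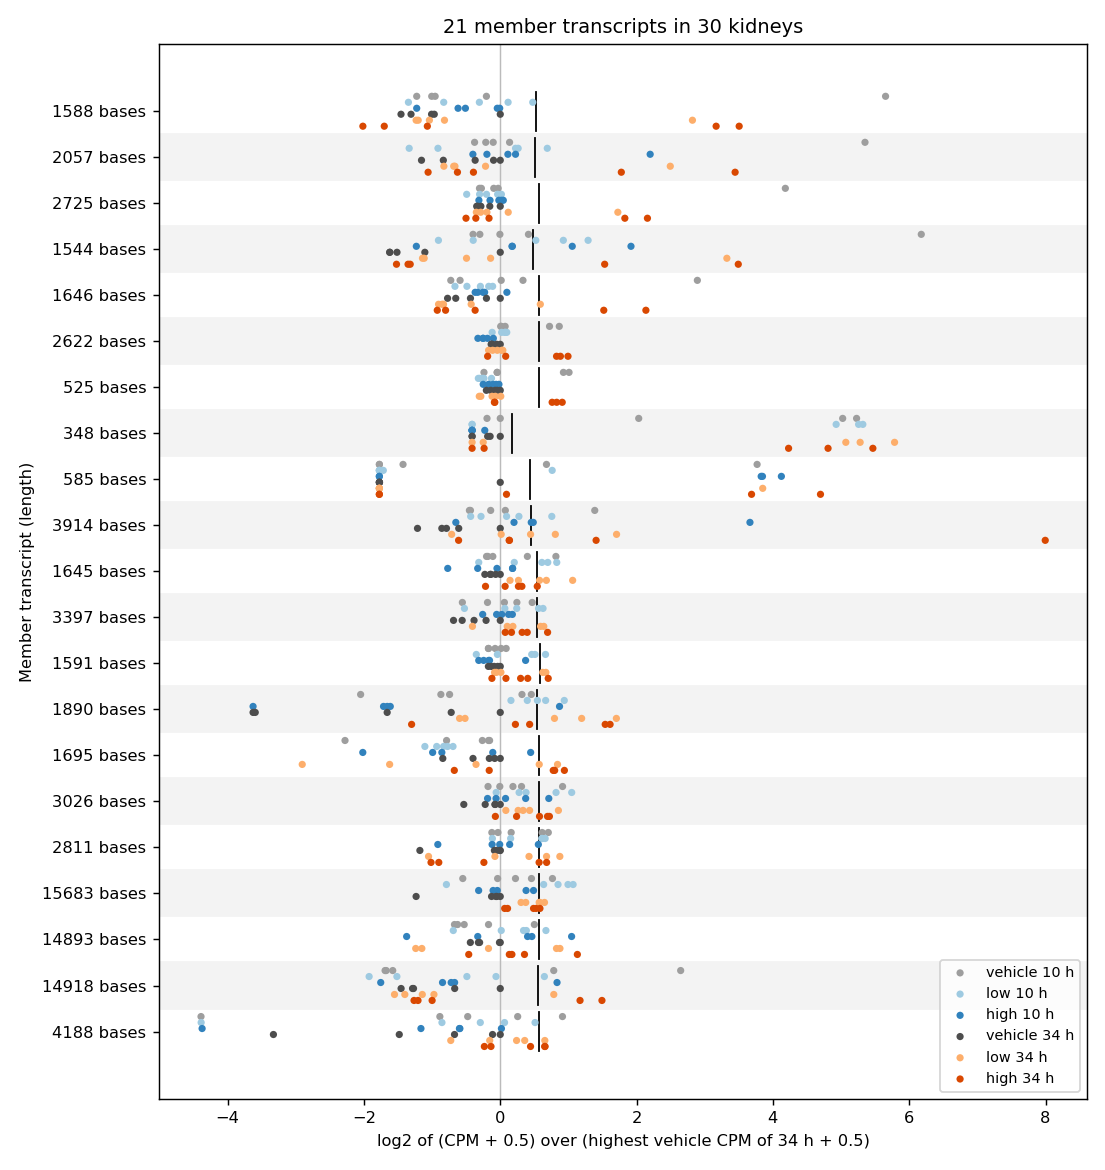
Level of the 21 members in all 30 kidneys, on the horizontal axis as log2 of CPM + 0.5 over that of the highest vehicle library of 34 h. Each point is 1 library, coloured by group, rows are members named by length, and the short vertical line is the bar at 1.5 times that vehicle library. In 20 rows at least 1 point of a 10 h group lies to the right of the line.

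Most members passed the bar in few kidneys. It was exceeded in 3 of the 10 HgCl2 libraries of 34 h by 13 members, in 4 by 5, in 5 by 2 and in 6 by 1. Both doses contributed for 19 members, and the high dose alone for 2. All 5 low dose libraries lay above all 5 vehicle libraries of 34 h in 3 members, and all 5 high dose libraries did so in 2. The rule favours such separation and its share over the 12842 transcripts was not computed, so nothing is read from these counts. The high dose kidneys held 42 of the passes and the low dose kidneys 33, each out of 105 pairs of member and library. At 10 h the vehicle held 23, the low dose 28 and the high dose 13. Over all 12842 transcripts the pairs over the bar were 1.38% for the high and 0.330% for the low dose at 34 h, and 0.396%, 1.09% and 1.20% for vehicle, low and high dose at 10 h. In the high dose of 10 h, replicate 2 had 4.95% and the other kidneys 0.164 to 0.428%.

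Kidneys differed widely in how many members they carried over the bar. High dose replicate 3 carried 13 and low dose replicate 4 carried 12, while the other 8 HgCl2 kidneys of 34 h carried 5 to 8. High dose replicate 3 also had 5.26% of the 12842 transcripts over their own bars, where the other 9 HgCl2 kidneys of 34 h had 0.117 to 0.646%. Low dose replicate 4, among those 9, had 0.615%, above the other low dose kidneys at 0.117 to 0.366%. At 10 h vehicle replicate 2 and low dose replicate 3 carried 8 each, as many as high dose replicates 1 and 5 of 34 h. The part of these single kidneys in the set was not tested. Leaving out a HgCl2 kidney of 34 h can only lose passes, so the falls in the count are largely set by the rule.

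**Figure D2:**
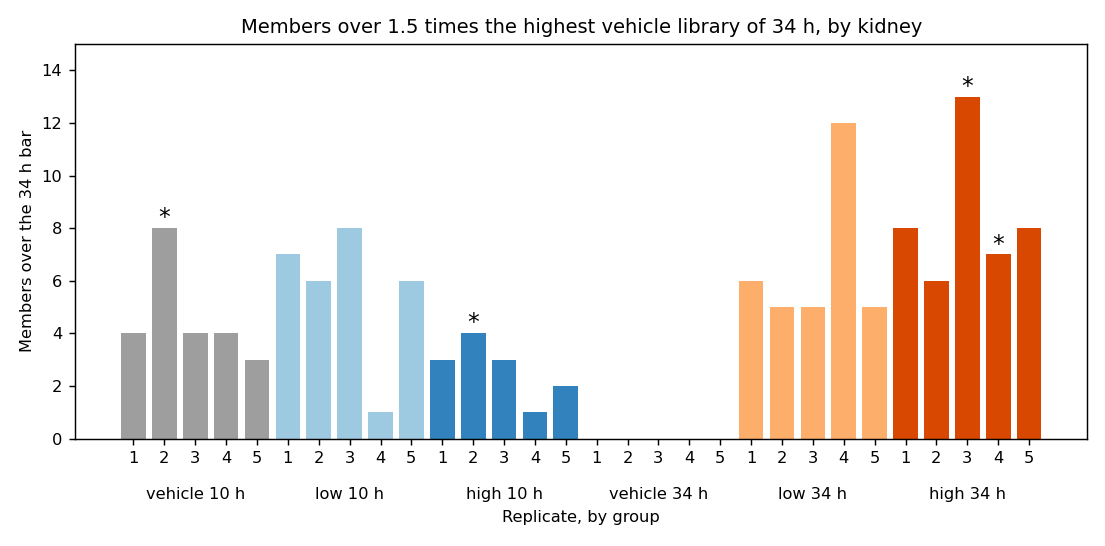
Number of the 21 members over the 34 h bar in each kidney, with 1 bar per library, grouped by treatment and time, and a star over the 4 libraries that stand apart. The vehicle libraries of 34 h are at 0 by the rule, and the highest is high dose replicate 3 at 13. Of the saline kidneys of 10 h, replicate 2 is at 8 and the others at 3 or 4.

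The largest block among the members held 5 transcripts, of 1544, 1588, 1646, 2057 and 2725 bases, that were high in the same 4 kidneys. These were low dose replicate 4 and high dose replicates 3 and 5 at 34 h, and a saline kidney, vehicle replicate 2 at 10 h, which held the highest level of all 5. The block was found after the values had been seen, as the members with a Pearson correlation of at least 0.8 in the 15 libraries of 10 h, on log2(CPM + 0.5) with group means removed.

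ENSRNOT00000009813 (1588 bases) stood at 1.76, 219.9, 1.37, 3.3 and 1.68 CPM in the vehicle of 10 h and at 1.74, 1.68, 3.88, 1.1 and 1.27 CPM in the vehicle of 34 h. After the low dose at 34 h it was 1.98, 1.4, 1.63, 30.4 and 1.36 CPM, and after the high dose 0.847, 0.583, 49.2, 1.59 and 38.8 CPM. Thus 3 of the 10 HgCl2 kidneys of 34 h were high and the other 7 lay within or below the range of the saline kidneys of that time. At 10 h the low dose reached 5.59 CPM and the high dose 3.86 CPM, both under the bar of 5.82 CPM. The median of the 4 high kidneys was 25.7 times that of the other 26.

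ENSRNOT00000034521 (1544 bases) was at 172 CPM in vehicle replicate 2 of 10 h and at 1.31 to 2.67 CPM in the other 4 of that group. At 34 h it was 0.274 to 1.88 CPM in the vehicle, 23.4 CPM in low dose replicate 4, and 6.39 and 26.3 CPM in high dose replicates 3 and 5. The other 26 kidneys had a median of 1.31 CPM, and 1 of them, high dose replicate 1 at 10 h with 8.5 CPM, was above the lowest of the 4. It was the member of the block with the most kidneys of 10 h over the bar of 34 h, 3 after the low dose and 2 after the high dose.

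The other 3 members of the block kept a higher base level or a smaller range. The transcript of 2725 bases was 8.19 to 12.8 CPM in 26 kidneys and 40.2 to 223 CPM in the 4, with no overlap. The transcript of 1646 bases was 5.63 to 14.2 CPM in 26 kidneys and 17.0 to 85.8 CPM in the 4, and its low dose replicate 4 (17.0 CPM) just passed its bar of 16.7 CPM. The transcript of 2057 bases was 0.736 to 13.8 CPM in 26 kidneys and 10.2 to 127 CPM in the 4, with an overlap through high dose replicate 1 of 10 h.

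Correlations within the block were 0.85 to 0.98 over its 10 pairs at 10 h and 0.83 to 0.98 at 34 h, as a description of libraries that the 5 transcripts share. Without vehicle replicate 2, the 10 h values were 0.16 to 0.87 with a median of 0.68. At 34 h, without the 3 high kidneys, they were -0.12 to 0.64 with a median of 0.39. Over the 91 pairs of the 14 members outside both blocks, the median was 0.06 at 10 h. The blocks were drawn at 0.8 in those libraries, so lower values outside them are fixed by the grouping. Among the 12842 transcripts, 8 that were not members also followed the block with a correlation of at least 0.8 at each time. In 5 of these 8, high dose replicate 3 of 34 h was under 20 CPM while high dose replicate 5 was at 7.41 to 60.7 CPM. In the one of 5188 bases, high dose replicate 3 was at 43.3 CPM, with the vehicle of 34 h up to 46.8 CPM. In those of 2324 and 3700 bases it was at 121 and 55.7 CPM, with that vehicle up to 106 and 26.2 CPM. Counts were whole for the members of 1544 and 2725 bases in all libraries, and not whole in 9, 21 and 29 of 30 libraries for those of 1588, 2057 and 1646 bases.

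**Figure D3:**
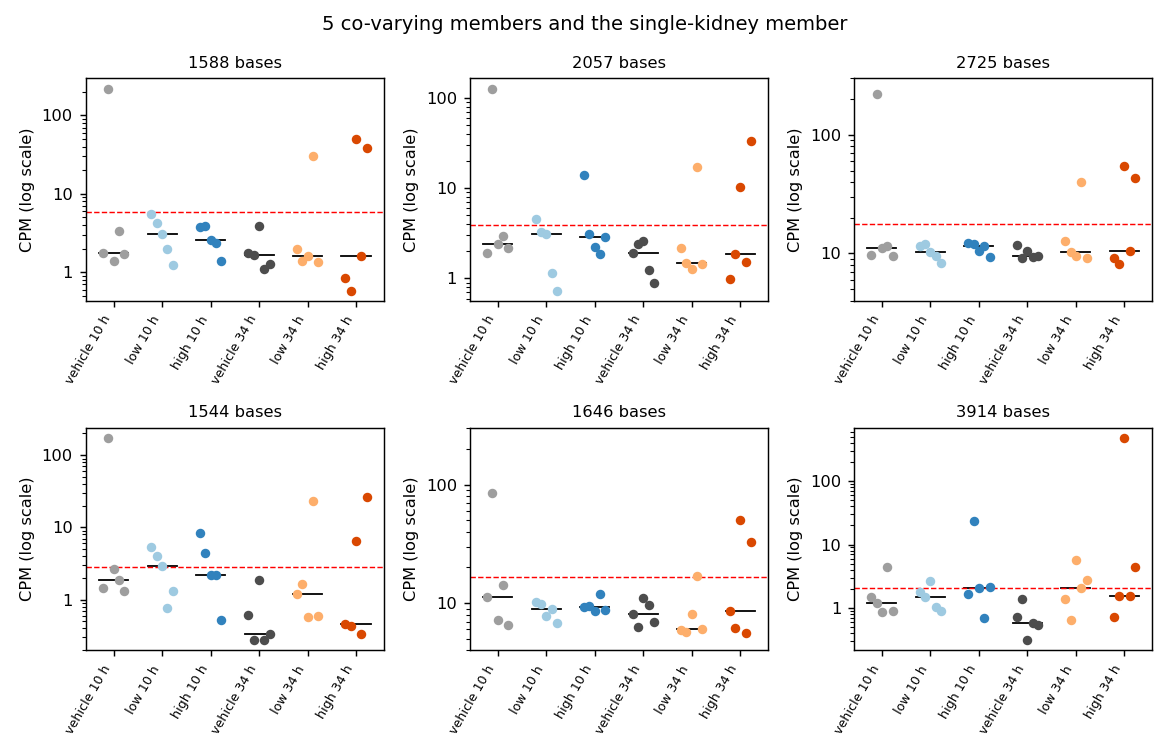
CPM (log scale) of the 5 members of the block and of the member of 3914 bases, with 1 point per kidney, groups on the horizontal axis, a black line at the group median and the 34 h bar as a red dashed line. In the block, vehicle replicate 2 of 10 h is the highest point in each panel, and all group medians of 34 h lie under the bar.

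A pair of members, of 2622 and 525 bases, had 2 separate levels, and the same 5 kidneys were at the upper one. These were vehicle replicates 1 and 5 of 10 h and high dose replicates 1, 2 and 4 of 34 h. The transcript of 2622 bases was 37.3 to 45.1 CPM in these 5 and 17.7 to 23.97 CPM in the other 25, a ratio of medians of 1.91. That of 525 bases was 41.4 to 49.3 CPM in the 5 and 19.3 to 24.4 CPM in the 25, a ratio of 2.06. No kidney lay between the levels, all counts were whole, and no kidney of the low dose at either time, of the high dose at 10 h or of the vehicle at 34 h was at the upper one.

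High dose replicates of 34 h gave 41.7, 40.1, 23.7, 45.1 and 19.6 CPM for the transcript of 2622 bases, against 20.4, 20.7, 20.5, 22.4 and 21.6 CPM in the vehicle of that time. Of the high dose kidneys, 3 were thus at the upper level and 2 at the lower one. Their correlation was 0.92 over the libraries of 10 h and -0.13 without vehicle replicates 1 and 5, so it rests on the kidneys at the upper level. No other of the 12842 transcripts followed the pair with a correlation of at least 0.8 at each time. The kidneys at the upper level have the library numbers 36, 40, 41, 42 and 54. The part of library order was not tested.

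Another 2 members were present in some kidneys and near 0 in others, a grouping that, like those that follow, was made after the values had been seen. ENSRNOT00000057587 (348 bases), with the most HgCl2 kidneys over its bar, was 36.2, 25.4 and 21.9 CPM in low dose replicates 2, 4 and 5 of 34 h and at most 0.06 CPM in the other 2. In high dose replicates 2, 3 and 4 of 34 h it was 18.2, 28.9 and 12.0 CPM, and at most 0.065 CPM in the other 2. The vehicle of 34 h had at most 0.166 CPM, so the bar was 0.249 CPM and any kidney with the transcript passed it.

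At 10 h ENSRNOT00000057587 was 21.2 and 24.5 CPM in vehicle replicates 2 and 4, 2.22 CPM in replicate 3 and at most 0.166 CPM in the other 2. The low dose of 10 h had 24.96, 26.1 and 19.8 CPM in replicates 3, 4 and 5 and 0 in the others, and the high dose of 10 h at most 0.0688 CPM. Kidneys with at least 10 CPM thus occurred in 4 of the 6 groups, 11 of 30 in all. The 2 groups without them were the vehicle of 34 h and the high dose of 10 h. Counts were not whole in 20 libraries, so that reads were shared with other targets.

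The member of 585 bases had the same form, in a set of kidneys that overlapped in part with that of ENSRNOT00000057587. It was 22.8 CPM in vehicle replicate 4, and 23.8, 29.3 and 24.1 CPM in high dose replicates 3, 4 and 5, of 10 h. At 34 h it was 24.2 CPM in low dose replicate 5 and 43.9 and 21.5 CPM in high dose replicates 3 and 4. The other 23 kidneys were at 0 to 2.4 CPM, those of the vehicle of 34 h at no more than 1.21 CPM. The highest mean of the 6 groups was that of the high dose at 10 h, 15.4 ± 14.3 CPM (SD, n = 5), against 13.3 ± 19.4 CPM in the high dose at 34 h. Vehicle replicate 4 of 10 h, and low dose replicate 5 and high dose replicates 3 and 4 of 34 h, were high in both this member and ENSRNOT00000057587.

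**Figure D4:**
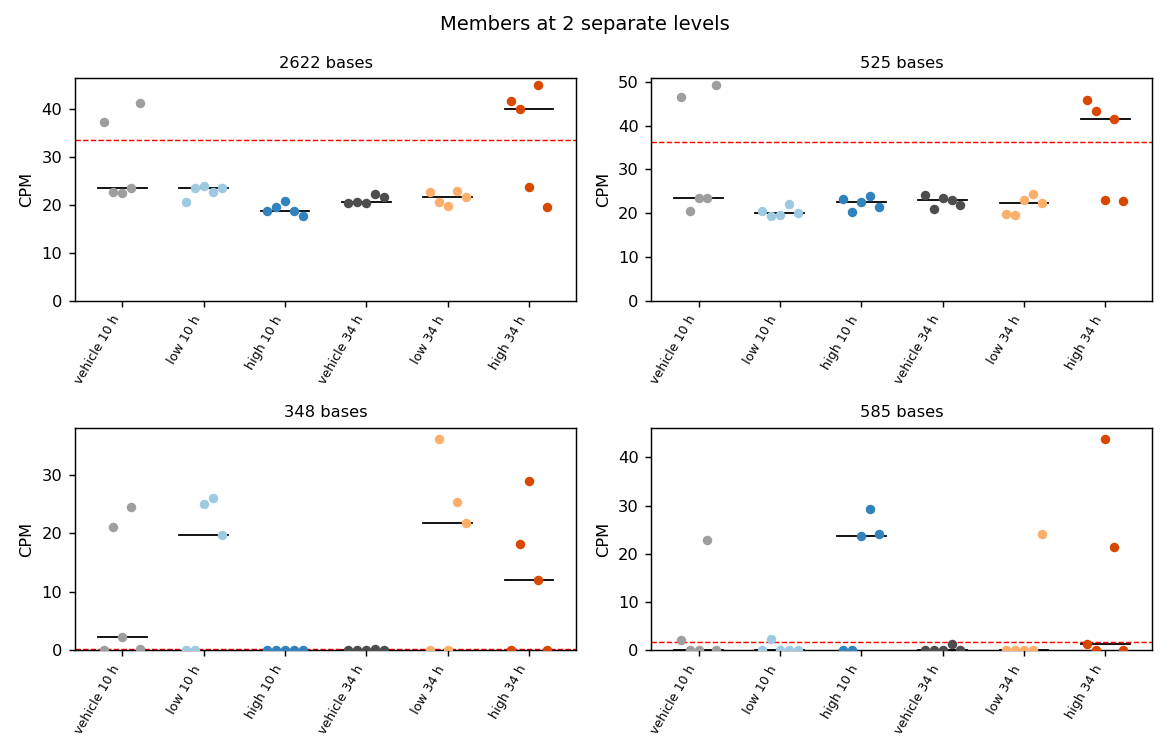
CPM of the 4 members with 2 separate levels, with 1 point per kidney, groups on the horizontal axis, a black line at the group median and the 34 h bar as a red dashed line. The members of 2622 and 525 bases lie near 20 or 40 CPM with the same 5 kidneys above, and those of 348 and 585 bases lie near 0 or over 10 CPM.

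The member of 3914 bases was 477.5 CPM in high dose replicate 3 of 34 h and at most 23.2 CPM in the other 29 kidneys. The next highest was high dose replicate 2 of 10 h. The vehicle of 34 h ranged from 0.307 to 1.37 CPM. With a bar of 2.06 CPM, low dose replicates 3 and 5 (5.61 and 2.78 CPM) and high dose replicate 5 (4.46 CPM) also passed. The high dose mean of 97.2 ± 213 CPM (SD, n = 5) rests on 1 kidney, and without it the transcript no longer met the whole rule. High dose replicate 3 of 34 h and replicate 2 of 10 h are both among the 4 libraries that stand apart.

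The remaining 11 members had graded levels, 3 of them with whole counts in every library. The transcript of 1591 bases had the highest level of all members, with a mean of 130.03 CPM and 109 TPM. It was 109, 119.7, 113, 117 and 106 CPM in saline kidneys of 34 h. After the low dose it was 121, 113, 191, 185 and 115 CPM at that time, and after the high dose 147, 109.9, 195, 158 and 127 CPM. Of the low dose kidneys, 2 were high and 3 near the vehicle, and the high dose was spread between. At 10 h the low dose was similarly spread, at 171, 165, 190.0, 116 and 93.7 CPM, with 106 to 127 CPM in the vehicle, so that it missed the 10 h rule with a ratio of 1.3 for the third highest HgCl2 library. That was the closest to the 10 h bar of any member.

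The transcript of 1645 bases was 3.8 to 4.53 CPM in saline kidneys of 34 h. After the low dose it was 5.06, 7.01, 7.54, 10.01 and 5.56 CPM, without overlap. In the high dose it was 6.83, 5.55, 5.77, 3.83 and 4.79 CPM, overlapping the vehicle. The vehicle of 10 h reached 8.36 CPM and the low dose of 10 h 8.44 CPM, with means of 5.30 ± 1.95 and 6.43 ± 1.98 CPM (SD, n = 5). The vehicle of 34 h had a mean of 4.15 ± 0.277 CPM, with the smallest SD of the 6 groups.

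The transcript of 3397 bases was 4.93, 3.66, 3.19, 2.88 and 4.2 CPM in the vehicle of 34 h and 6.29, 5.59, 6.65, 8.29 and 5.21 CPM in the high dose, without overlap. The low dose ranged from 3.59 to 7.96 CPM and overlapped the vehicle. Its vehicle of 10 h was at 5.12 ± 1.47 CPM and its low dose of 10 h at 5.96 ± 1.87 CPM (SD, n = 5), close to both HgCl2 groups of 34 h at 6.05 ± 1.80 and 6.41 ± 1.20 CPM.

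The other 8 graded members shared reads with other targets. The transcript of 3026 bases was 17.96 ± 2.54 CPM (SD, n = 5) in the vehicle of 34 h, 27.2 ± 5.90 in the low dose and 28.1 ± 6.26 in the high dose. In the vehicle of 10 h it was 25.004 ± 8.12 CPM and in the low dose of 10 h 29.8 ± 9.28 CPM, so that of the 6 means the one in saline kidneys of 34 h was lowest. The transcript of 15683 bases also had its lowest mean there, with 10.8 ± 3.20 CPM in the vehicle of 34 h, 18.3 ± 1.90 in the low dose and 16.7 ± 2.85 in the high dose, and 15.2 ± 5.14 in the vehicle of 10 h. In it every HgCl2 library of 34 h lay above every vehicle library of that time, the lowest at 13.4 CPM and the highest vehicle at 12.8 CPM.

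ENSRNOT00000091273 (1890 bases) was 5.68, 1.46, 0, 3.25 and 0.0112 CPM in the vehicle of 34 h, where the 0 stands for a value that rounds to it. It was 19.6, 13.6, 10.2, 3.82 and 3.58 CPM in the low dose and 7.83, 18.4, 2.01, 17.5 and 6.7 CPM in the high dose. Of the 10 HgCl2 kidneys, 4 lay above every kidney of 10 h, where the highest was 11.3 CPM. The low dose of 10 h was at 8.63 ± 1.86 CPM and the high dose of 10 h at 3.03 ± 4.38 CPM (SD, n = 5). Counts were not whole in 29 libraries.

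The transcript of 1695 bases was the one with no 10 h kidney over its bar. High dose replicates 1, 2 and 5 (31.5, 28.5 and 28.0 CPM) and low dose replicates 1 and 4 (29.3 and 24.3 CPM) of 34 h lay above the highest kidney of 10 h, at 22.2 CPM. Of the other HgCl2 kidneys of 34 h, 3 (12.5, 9.94 and 14.4 CPM) lay within the vehicle's 8.78 to 16.2 CPM, and 2 (1.72 and 4.91 CPM) lay under every vehicle library of that time. In this transcript HgCl2 kidneys of 34 h were thus found on both sides of the vehicle.

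In the last 4 members, kidneys of 10 h also passed the bar of 34 h. For 4188 bases it was 1 vehicle kidney, and for 2811 bases 2 vehicle and 3 low dose kidneys. The transcript of 14918 bases was highest in a saline kidney of 10 h (41.8 CPM), with 18.5 and 14.7 CPM in high dose replicates 1 and 3 of 34 h. The transcript of 14893 bases was 5.3 to 24.7 CPM in the low dose and 9.45 to 29.5 CPM in the high dose of 34 h, against at most 27.8 CPM at 10 h (high dose replicate 2). The transcript of 2811 bases was 4.39 to 18.1 CPM in the low dose and 4.52 to 15.8 CPM in the high dose of 34 h, where the vehicle was at 3.98 to 9.65 CPM. Its highest kidney of 10 h, a saline one, was at 16.04 CPM. The transcript of 4188 bases had its highest level, 19.2 CPM, in vehicle replicate 4 of 10 h, and 16.04 CPM at most at 34 h.

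**Figure D5:**
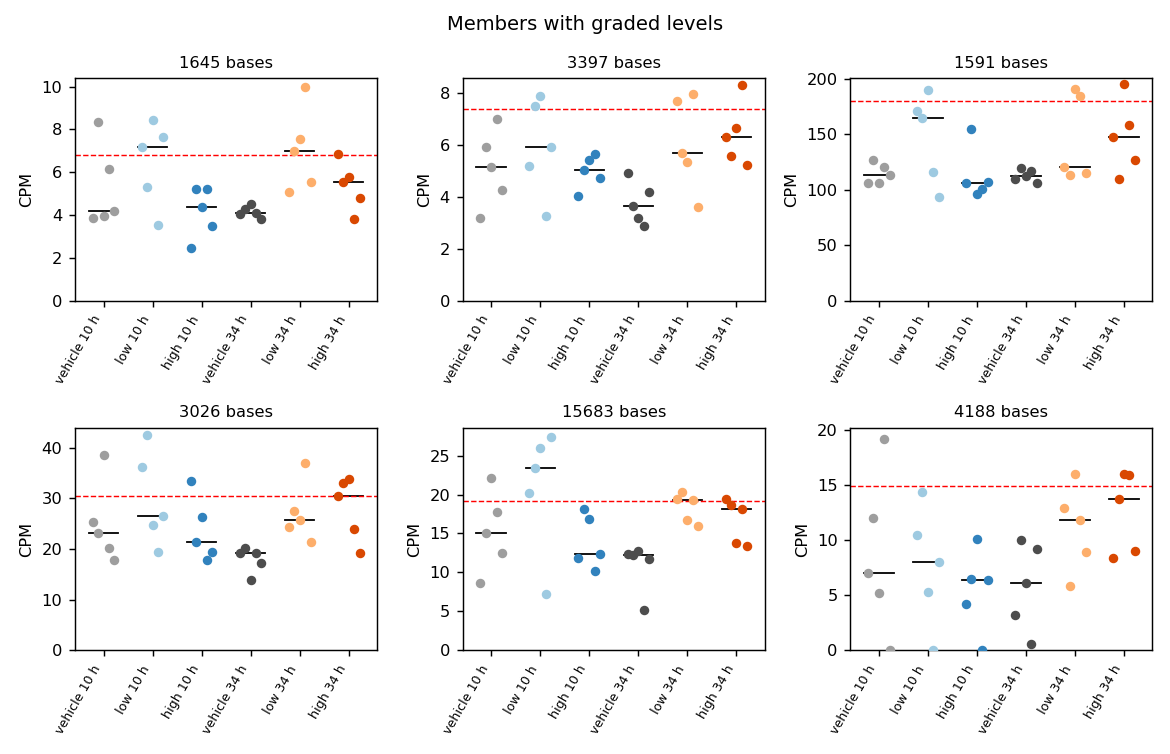
CPM of the 3 graded members with whole counts (upper row) and of 3 others (lower row), with 1 point per kidney, groups on the horizontal axis, a black line at the group median and the 34 h bar as a red dashed line. The vehicle of 34 h has the lowest mean of the 6 groups in 4 of these panels, and kidneys of 10 h cross the bar in all 6.

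The doses were also compared with each other. The rule chose on these libraries at 34 h and limited them at 10 h, so the members' differences between doses are a description and not independent of the choice. At 34 h the edgeR quasi-likelihood test, adjusted over 21112 transcripts, called 0 of the 21 members and 0 of all transcripts (0.0%). At an unadjusted p under 0.05 there were 3 members and 678 transcripts (3.21%), and DESeq2 called 0 members and 4 transcripts (0.0192% of those with an adjusted p, which 1 member lacked). The fitted log2 difference of high minus low dose was positive in 16 members and 51.7% of all transcripts, with medians of 0.26 and 0.01. The 3 were the pair of 525 and 2622 bases and the member of 3914 bases. The pair met the rule through high dose kidneys alone, and the member of 3914 bases reached the minimum mean level through a single high dose kidney, so that the choice fixed the direction in all 3.

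At 10 h edgeR called 0 of the 21 members between the doses and 0 of all transcripts (0.0%), with 4 members and 3633 transcripts (17.2%) at an unadjusted p under 0.05. DESeq2 called 2 members and 1107 transcripts (6.52% of those with an adjusted p). One was ENSRNOT00000057587 (348 bases), which 3 low dose kidneys and no high dose kidney of 10 h carried (edgeR adjusted p = 0.112, DESeq2 adjusted p = 0.0155). The other was the transcript of 2622 bases (edgeR log2 difference -0.23, SE 0.07, adjusted p = 0.153, DESeq2 adjusted p = 0.0203), at 19.1 ± 1.16 against 22.9 ± 1.36 CPM (SD, n = 5). In the edgeR fit of all 30 libraries the first had an adjusted p of 0.0429 and was the 1 member called, beside 674 of all transcripts (3.19%). The median log2 difference of high minus low dose was -0.19 in the members and 0.01 in all transcripts.

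Against the vehicle of 34 h, the contrast that chose the members, edgeR called 0 of the 21 after the low dose, where it called 7 of all 21112 transcripts (0.0332%), and 0 after the high dose, where it called 0 (0.0%). Nothing is read from these counts, since the rule used the contrast. At an unadjusted p under 0.05 there were 7 members and 14.3% of all transcripts after the low dose, and 15 members and 5.52% after the high dose. DESeq2 called 3 members after the low dose (348, 3026 and 15683 bases) and 433 transcripts (3.84% of those with an adjusted p, which 9 members lacked). After the high dose it called 1 member (348 bases) and 41 transcripts (0.196%). Both comparisons share the vehicle libraries. Fitted differences of members near 0 in the vehicle depend on the offset of the fit and are not given. The transcript of 3026 bases had log2 differences of 0.59 (SE 0.15) after the low and 0.61 (SE 0.16) after the high dose. Its edgeR adjusted p was 0.239 and 0.821. That of 3397 bases had 0.67 (SE 0.22) and 0.74 (SE 0.19), with an edgeR adjusted p of 0.269 and 0.821. The rule asked for a rise in this contrast, so these differences are a description too.

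Around the threshold, the members just inside had the third highest HgCl2 library at 1.52 (15683 bases), 1.53 (1646 bases) and 1.54 (1591 bases) times the highest vehicle library of 34 h. The transcripts just outside were at 1.496, 1.49 and 1.49 times. Members were of lower level than the 12842 transcripts, with a median of the mean of 13.2 against 25.8 CPM, and of similar length, with a median of 2057 against 2356 bases. Counts were whole in all libraries for 7 members (33.3%), against 43.2% of the 12842. Per length, mean levels ran from 0.475 TPM (14918 bases) to 109 TPM (1591 bases).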

How the data were processed

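Whole kidneys of 30 rats were sequenced as stranded poly-A libraries with 75-bp read pairs, per the labels' protocols. The deposited estimated counts (expected counts per target) come from kallisto 0.42.2 on Rnor_6.0, per the submitters' processing notes, which divides reads among matching targets. The deposited TPM values are scaled to effective length and a common sum, and keep no depth. The sources used here do not give annotation release or options. Genomic intervals (5.82 to 9.23% of counts) were left out.

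CPM are estimated counts over the sum of transcript counts, on the usual CPM scale. For tests, counts were rounded and kept by filterByExpr over 30 libraries (21112 transcripts, all 21 members), then fitted with edgeR 4.0.16 (quasi-likelihood, robust, TMM) on the groups compared, with Benjamini-Hochberg adjustment over all transcripts and a call at an adjusted p under 0.05. The SE is the log2 fold change over the square root of F. Alternatives used DESeq2 1.42.0 and limma 3.58.1, in R 4.3.3 and Python 3.11.15. The edgeR procedure was tested on simulated data. Replicates differed by more than sampling noise (chi-square per degree of freedom of at least 14.1). Counts were called whole within 1e-06. Replicates are numbered in accession order and pair no samples.

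Members and lists were chosen with earlier results of these data known. IDs printed are, at most, 2 with the most HgCl2 libraries of 34 h over the bar and 2 with the largest fall of the vehicle mean from 10 to 34 h. Lists of injury and cell type markers could not be matched and were not used.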

Additional observations from a re-analysis of the deposited data

Results flagged for a closer look

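Within groups of 5, a kidney was far from the other 4 (gap over range above Dixon's 95% value) 31 times in 126 combinations of member and group, in 13 members and 16 libraries. That value would flag about 1 in 20 groups of unselected, normally distributed values. The members were chosen for a few high kidneys and were taken on the CPM scale, so no excess over chance is read from the count. The members share libraries and, in part, reads, so the flags are not independent.

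Vehicle replicate 2 of 10 h was far above its group in the 5 members of the block, at 220 CPM (1588 bases), 127 (2057), 223 (2725), 172 (1544) and 85.8 CPM (1646). Low dose replicate 4 of 34 h was so in the same 5, at 30.4, 17.1, 40.2, 23.4 and 17.0 CPM. High dose replicate 5 of 34 h stood out at 33.5 CPM (2057 bases) and 26.3 CPM (1544 bases). Lower flags in the block were vehicle replicate 3 of 34 h at 3.88 CPM (1588 bases) and 1.88 CPM (1544 bases), high dose replicate 1 of 10 h at 13.8 CPM (2057 bases) and high dose replicate 4 of 10 h at 11.9 CPM (1646 bases).

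The member of 3914 bases was high in high dose replicate 3 of 34 h (478 CPM), high dose replicate 2 of 10 h (23.2 CPM) and vehicle replicate 4 of 10 h (4.4 CPM). High dose replicate 2 of 10 h also stood out at 155 CPM (1591 bases) and 11.5 CPM (14918 bases). The transcript of 14918 bases was high in vehicle replicate 3 of 10 h (41.8 CPM) and low dose replicate 2 of 34 h (11.1 CPM). The transcript of 585 bases was high in vehicle replicate 4 of 10 h (22.8 CPM), low dose replicate 2 of 10 h (2.4 CPM), vehicle replicate 4 of 34 h (1.21 CPM) and low dose replicate 5 of 34 h (24.2 CPM). High dose replicate 3 of 10 h had 10.8 CPM of the transcript of 1890 bases and 0.0688 CPM of that of 348 bases, the latter near 0. Low values were 3.98 CPM in vehicle replicate 1 of 34 h (2811 bases) and 5.15 CPM in vehicle replicate 4 of 34 h (15683 bases).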

How the results depend on the processing

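The number of members, 21, was 8 with a bar of 2-fold, 9 with at least 4 libraries and 11 with at least 5 (both changed at 34 and 10 h, with 8 and 3 of the 21 among them), and 7 with whole counts only. Leaving out 1 library gave 10 to 78. The lowest was without high dose replicate 3 of 34 h, and the count was 40, 43 and 78 without vehicle replicates 1, 3 and 5 of 34 h. Each of these kept all 21, but leaving out a vehicle library of 34 h cannot raise the bar, so little is read from that. Leaving out a HgCl2 library of 34 h can only lose passes, so little is read from the falls either. Without the 4 libraries that stand apart, a setting added after seeing the data as were the libraries of 10 h left out singly, the count was 7. With TMM scaling it was 20, of which 17 were shared (1591, 3397, 4188 and 15683 bases were lost), and with TPM 24. The vehicle of 34 h had the lowest mean in 14 members, and in 13 with TMM scaling or TPM.

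Between the doses at 34 h the count of members called was 0 under every alternative run. At 10 h it was 0 with edgeR, 2 with DESeq2 (1107 of all transcripts) and 1 in the fit of all 30 libraries (674 of all). Against the vehicle of 34 h DESeq2 called 3 members (433 of all transcripts) after the low and 1 (41 of all) after the high dose, where edgeR called 0 members in both. Single libraries left out gave 0 to 0 members in all 4 comparisons. No paired analysis was made, since each library is read as 1 rat and the labels carry no replicate numbers to pair rats by.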
